A study of Homo sapiens with 11 samples.

Results

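The genes described here carry glucose into the cell and through its central breakdown: glucose and lactate transporters, the enzymes of glycolysis and the pentose phosphate pathway, the step that brings pyruvate into mitochondria, and the citric acid cycle. The 43 genes were listed by their symbols, step by step, and 39 of them had a probe above background, that is, with a detection p-value under 0.01 on at least 5 of 11 arrays, among 9653 genes that passed the same filter. SLC16A1, SLC16A3 and FH were not analysed here. The single PDK1 probe passed the detection limit on 0 arrays, so PDK1, a kinase that switches pyruvate dehydrogenase off, was not tested.

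The arrays compared HEK293T cells, a human embryonic kidney line, after lipofectamine transfection with either construct: 6 mutDFNA5 arrays and 5 wtDFNA5 arrays. DFNA5, now GSDME, encodes gasdermin E. Its mutant form lacks exon 8 and encodes a truncated protein, as in a hereditary hearing loss. The titles of mutDFNA5 samples carry the letters KO although nothing was deleted: both groups kept their own GSDME gene, both were transfected with a DFNA5 construct, and cells with no DFNA5 construct were not analysed here. Every value below is therefore mutDFNA5 relative to wtDFNA5 and shows neither construct's effect against untransfected cells. All cells grew in the same high-glucose medium with serum. The labels give 6 h after transfection for the harvest and 12 h for the RNA extraction of the arrays. These times are not reconciled in the labels, and the study's results state 12 h for collecting the RNA. The study calls its replicates biologically independent.

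The GSDME probe gave log2 signals of 8.05 in mutDFNA5 and 8.02 in wtDFNA5 cells (means, adjusted p = 0.908), and as both groups received the gene, it does not check the labels. Without cells lacking a construct, it also does not show whether either construct was expressed. Of 9 markers of the HEK293 line, 6 were above background (VIM, KRT18, NEFM, NEFL, CDH2 and EYA1), PAX2 and KRT8 passed the detection limit on 0 arrays, and NEFM was 0.75 log2 units higher in mutDFNA5 cells (adjusted p = 8.9e-07). Of 12 markers of blood, endothelial, connective tissue, liver and kidney epithelial cells, PECAM1 and EPCAM passed the filter, with changes of -0.04 and -0.05. Between 14029 and 15443 probes were detected per array, and each array correlated with the others at 0.988 to 0.992 on average. With RNA of whole cultures, a different number of cells in a given state and a different amount of RNA per cell cannot be told apart.

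Glycolysis splits glucose into pyruvate in the cytosol and yields a little ATP. The pentose phosphate pathway branches off at glucose 6-phosphate and supplies NADPH and ribose, and the citric acid cycle burns the acetyl group of pyruvate in mitochondria to feed the respiratory chain. Proliferating lines such as HEK293T run glycolysis at a high rate even with oxygen present, and send much of the pyruvate out as lactate. The cycle is also linked to cytosolic enzymes, among them the cytosolic isocitrate dehydrogenase IDH1 and the cytosolic malate dehydrogenase MDH1, which handle the same metabolites outside mitochondria.

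Of the 39 genes, 0 were significantly up-regulated and 1, IDH1, was significantly down-regulated in mutDFNA5 cells (limma, adjusted p under 0.05). Over all 9653 genes, 4.05% were up-regulated and 4.92% down-regulated, 8.97% in either direction. At an unadjusted p under 0.05, 3 of the 39 genes passed (HK2 higher, IDH1 and MDH1 lower), against 23.8% of all genes. The values of the mutDFNA5 and wtDFNA5 arrays did not overlap for 2 of the 39 genes, IDH1 and MDH1, against 6.62% of all genes.

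The log2 changes of the 39 genes ran between -0.49 and 0.22 around a median of 0.04, beside a median of -0.01 over all genes tested. Signals lay above wtDFNA5 for 22 genes and below for 17. The SD of the changes was 0.12 among these genes and 0.18 among all genes tested, while the median standard error was 0.08 in both. For 38 of the 39 genes (97.4%) the whole 95% interval of the change lay within 0.5 log2 units on either side of 0, against 94.4% of all genes tested. Without IDH1, the intervals reached no further than -0.30 and 0.40. The brightest genes lay near 15.38, the highest value of any probe. Among them were ENO1, LDHA and TPI1, with mutDFNA5 means of 14.91, 14.83 and 14.76. Whether changes of such bright probes are understated was not tested. The limits of the intervals hold for transcripts under the quantile normalization used, which sets the distributions of all arrays alike. When each array was instead shifted to a common median over all probes, 12 of the 39 changes switched sign and the median change was 0.08, beside 0.07 for all genes. Under that scaling IDH1 had an adjusted p of 0.105, the highest of the 20 alternatives tried (the lowest was 0.000945), and no gene of the 39 passed, and 16.7% of all calls were down-regulations, against 54.8% with quantile normalization. When the common median was taken over the tested probes alone, 3 changes switched sign, the median change was -0.0068, beside -0.02 for all genes, IDH1 kept its call (adjusted p = 0.00603) and 57.1% of all calls were down-regulations.

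**Figure D1:**
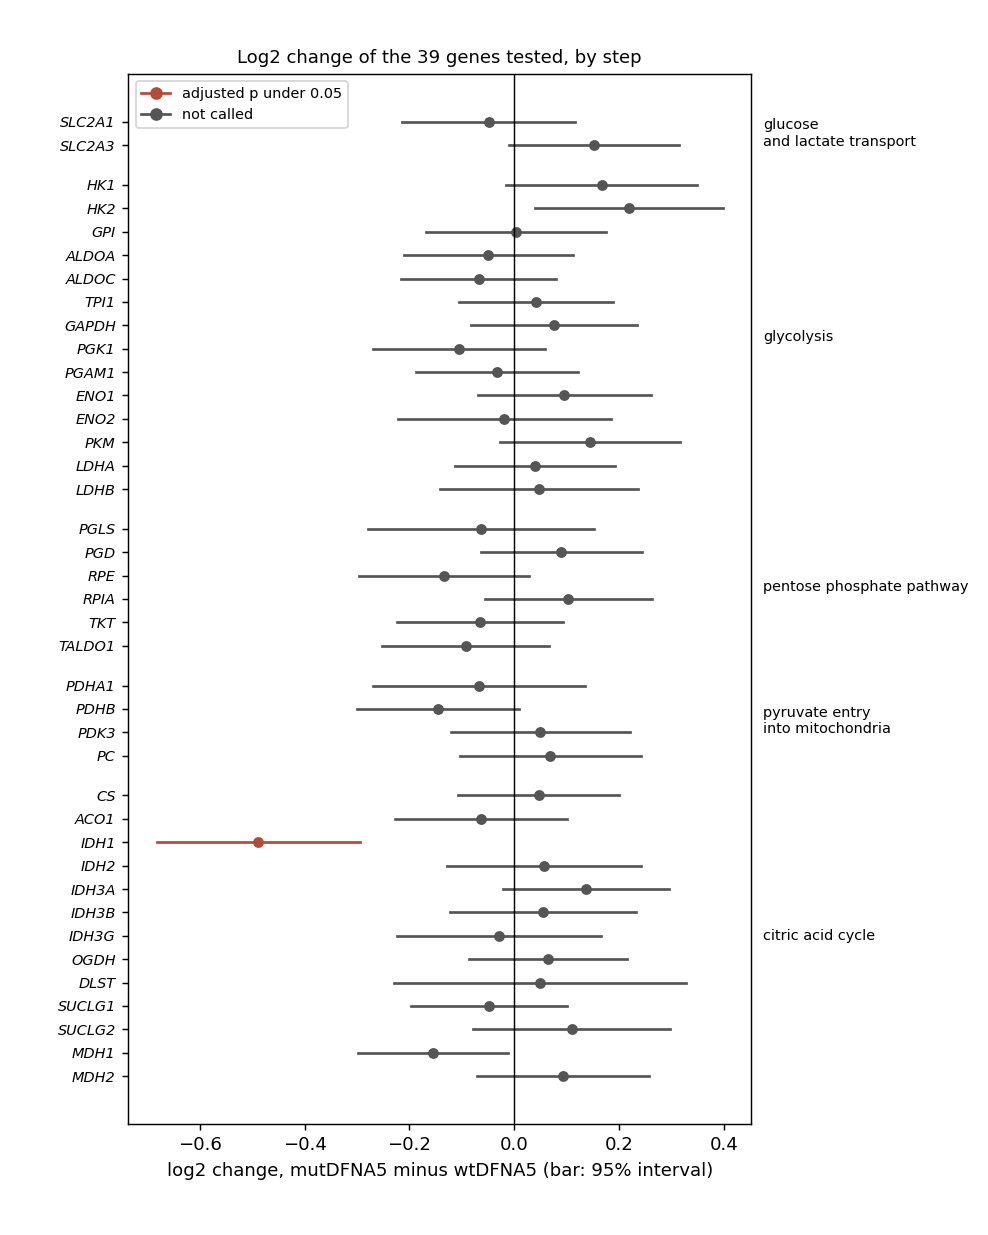
Each point is the log2 change of 1 gene, mutDFNA5 minus wtDFNA5 (x axis, log2 units), with its 95% interval as a bar, ordered by step of the pathway. IDH1, in red, lies at -0.49 and is the single gene that passed the test, and the intervals of the other 38 genes lie between -0.30 and 0.40.

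Isocitrate dehydrogenases convert isocitrate to 2-oxoglutarate. IDH1 does so in the cytosol and peroxisomes and makes NADPH, IDH2 is its NADPH-making counterpart in mitochondria, and IDH3A, IDH3B and IDH3G are the catalytic and regulatory subunits of the NADH-making enzyme of the citric acid cycle itself. IDH1 lies on chromosome 2, chr2:208236227-208255071 in the RefSeq annotation of GRCh38.p14, on the reverse strand. The 250 bases before its outermost annotated start are shown beside those of IDH3A, the gene of this family with the largest change of the opposite sign, since IDH1 carries the significant difference among these genes. They are read on each gene's own strand from RefSeq, 5′ to 3′, and capitals mark matches to the GC box letters GGGCGG on either strand.
IDH1, chr2:208255072-208255321, reverse strand: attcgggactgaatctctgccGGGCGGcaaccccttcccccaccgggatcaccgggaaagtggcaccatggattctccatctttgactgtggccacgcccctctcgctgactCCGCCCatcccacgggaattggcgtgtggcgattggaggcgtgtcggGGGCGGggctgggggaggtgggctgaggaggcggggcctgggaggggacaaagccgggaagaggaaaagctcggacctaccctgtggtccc
IDH3A, chr15:78149112-78149361, forward strand: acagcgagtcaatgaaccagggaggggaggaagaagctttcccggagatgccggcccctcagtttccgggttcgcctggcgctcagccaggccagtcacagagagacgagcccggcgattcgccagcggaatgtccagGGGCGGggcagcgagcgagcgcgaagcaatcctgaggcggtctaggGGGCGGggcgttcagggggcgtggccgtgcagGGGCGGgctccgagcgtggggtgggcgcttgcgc
Both stretches held 3 GC box matches, and neither held ACGTG, the core of the hypoxia response element. A match describes letters only, and no binding was measured.

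On the brighter of its 2 probes, IDH1 gave log2 signals between 9.72 and 10.18 on the 6 mutDFNA5 arrays, with a median of 9.93. The 5 wtDFNA5 arrays gave 10.26, 10.57, 10.54, 10.40 and 10.42. Every mutDFNA5 array thus lay below every wtDFNA5 array, with mutDFNA5 replicates 1, 4 and 6 at 9.78, 9.80 and 9.72 and replicates 2, 3 and 5 at 10.16, 10.06 and 10.18. The means were 9.95 ± 0.21 in mutDFNA5 (SD, n = 6) and 10.44 ± 0.12 in wtDFNA5 cells (SD, n = 5), a log2 change of -0.49 (95% interval -0.68 to -0.29, adjusted p = 0.00222), or 1.40-fold lower. Leaving out any 1 array kept the call, with changes between -0.53 and -0.44 and adjusted p-values between 0.00142 and 0.00927. The dimmer IDH1 probe gave 8.42 to 8.92 on mutDFNA5 arrays, median 8.58, and 8.66, 9.24, 8.95, 8.77 and 9.12 on wtDFNA5 arrays. Here the groups overlapped, and the change of -0.33 (95% interval -0.55 to -0.12) had the same direction and missed the threshold with an adjusted p of 0.0508. Among the mutDFNA5 arrays the dimmer probe ran opposite to the brighter one. Replicates 1, 4 and 6 gave 8.73, 8.92 and 8.63, above replicates 2, 3 and 5 at 8.42, 8.525 and 8.46. Whether the probes read the same transcripts was not tested.

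**Figure D2:**
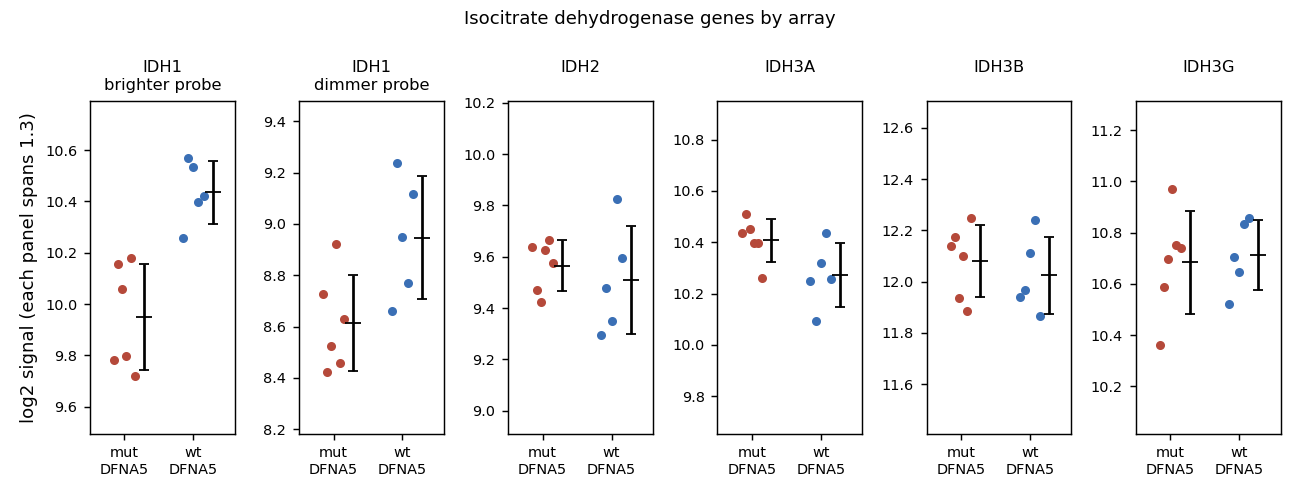
Log2 signal of each array (points) for both IDH1 probes and the other isocitrate dehydrogenase genes, with mutDFNA5 arrays left and wtDFNA5 arrays right in each panel, and the mean ± SD as black bars (n = 6 and n = 5). The y axes span the same range, and only on the brighter IDH1 probe do the groups stand apart.

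The other isocitrate dehydrogenase genes did not pass the test. IDH2 gave 9.42 to 9.66 in mutDFNA5 cells, median 9.60, against 9.30, 9.48, 9.35, 9.82 and 9.60 in wtDFNA5 cells, a change of 0.06 (95% interval -0.13 to 0.24, adjusted p = 0.754). IDH3A gave 10.26 to 10.51 in mutDFNA5 cells, median 10.42, against 10.25, 10.09, 10.32, 10.44 and 10.26 in wtDFNA5 cells, a change of 0.14 (95% interval -0.02 to 0.30, adjusted p = 0.294). Both sets of values overlapped. IDH3B and IDH3G had changes of 0.06 (95% interval -0.12 to 0.23) and -0.03 (95% interval -0.22 to 0.17), with overlapping groups as well. Within each array, the log2 signal of IDH1 minus that of each of these 4 genes was lower in mutDFNA5 than in wtDFNA5 cells. This difference, mutDFNA5 minus wtDFNA5, was -0.55 against IDH2, -0.62 against IDH3A, -0.54 against IDH3B and -0.46 against IDH3G. These 4 differences share the IDH1 values and were formed after those had been seen, so they are given as a description, with no test.

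Among the other enzymes of the citric acid cycle, MDH1 came nearest to the threshold. MDH1 works at the cytosolic end of the shuttle that moves malate, and with it reducing power, between cytosol and mitochondria. Its signals were 13.35 to 13.48 in mutDFNA5 cells, median 13.42, and 13.55, 13.53, 13.68, 13.50 and 13.60 in wtDFNA5 cells. The groups did not overlap. The log2 change was -0.15 (95% interval -0.30 to -0.01), and over all probes its adjusted p was 0.178. Its mitochondrial counterpart MDH2 had a change of 0.09 (95% interval -0.07 to 0.26, adjusted p = 0.519).

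No other gene of the cycle passed. CS, which joins acetyl-CoA to oxaloacetate, had a log2 change of 0.05, and ACO1, the cytosolic aconitase that also acts as an iron sensor, one of -0.06. OGDH and DLST, subunits of the 2-oxoglutarate dehydrogenase complex, had values of 0.06 and 0.05. SUCLG1 and SUCLG2, subunits of succinyl-CoA ligase, had values of -0.05 and 0.11. DLST had the widest interval of the 39 genes, -0.23 to 0.33. Its wtDFNA5 replicate 3 gave 9.45 while the other wtDFNA5 arrays gave 10.27 to 10.39, and without that array the DLST change was -0.13. Over all 13 genes of the cycle tested, 8 changes were above 0 and 5 below, with a median of 0.05.

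**Figure D3:**
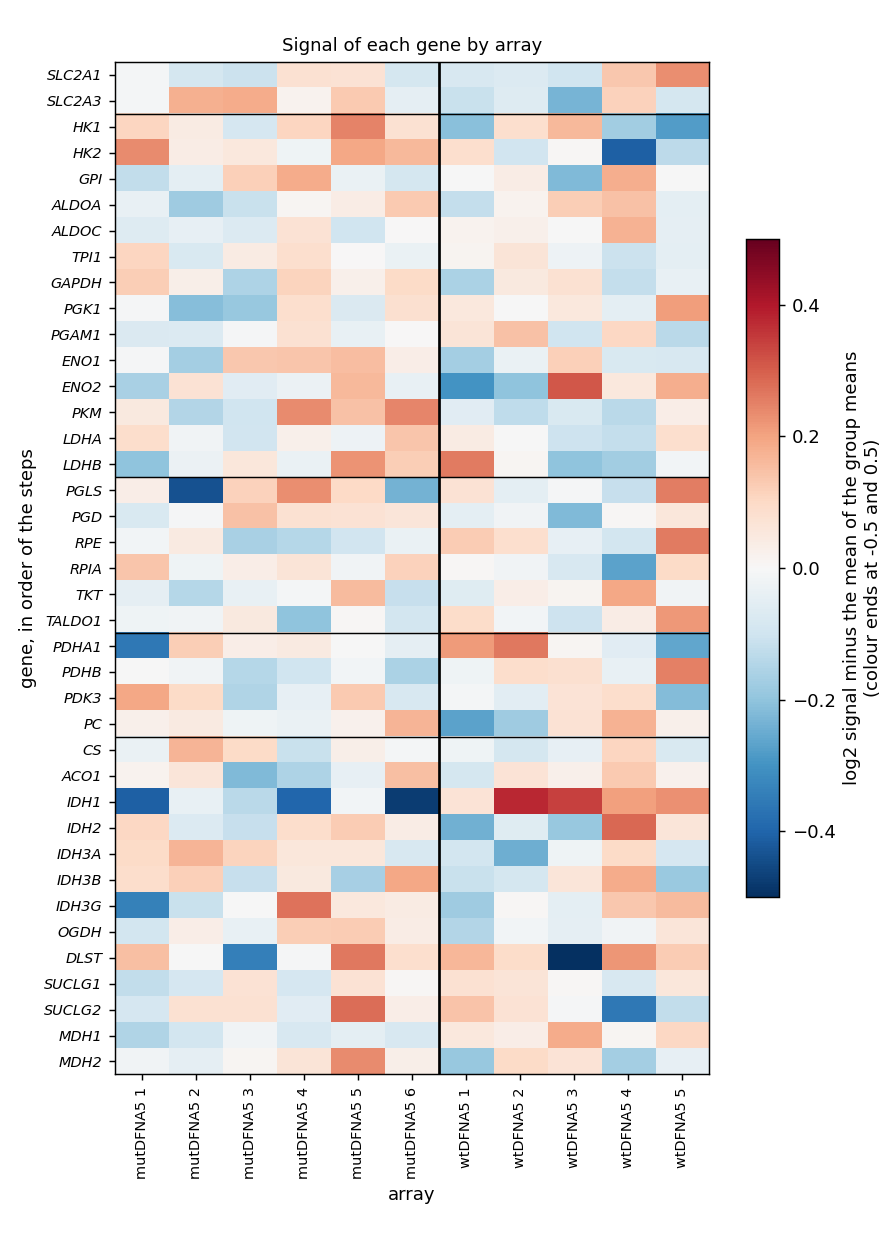
Each cell is the log2 signal of 1 gene (row) on 1 array (column) minus the mean of its group means, blue below and red above, with mutDFNA5 arrays left of the black line. The IDH1 row is blue on 6 of 6 mutDFNA5 arrays and red on 5 of 5 wtDFNA5 arrays, and the dark DLST cell is wtDFNA5 replicate 3.

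Of the 4 transporters listed, SLC2A1 and SLC2A3 were tested, and 0 passed. SLC2A1, the basal glucose carrier GLUT1, gave 9.42 to 9.61 in mutDFNA5 cells, median 9.48, and 9.45, 9.46, 9.43, 9.67 and 9.76 in wtDFNA5 cells. The change was -0.05 (95% interval -0.21 to 0.12, adjusted p = 0.767), and it switched sign, to 0.06, under median scaling over all probes, while it stayed at -0.03 under median scaling over the tested probes. SLC2A3, the high-affinity carrier GLUT3, gave 8.16 to 8.39 in mutDFNA5 cells, median 8.27, against 8.09, 8.14, 7.97, 8.32 and 8.11 in wtDFNA5 cells, a change of 0.15 (95% interval -0.01 to 0.31, adjusted p = 0.252). For both carriers the groups overlapped.

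Of the 14 glycolysis genes, 0 passed, with 9 changes above 0, 5 below and a median of 0.04. The hexokinases, which trap glucose in the cell by phosphorylation, lay at the upper end. HK2, the inducible form, gave 9.13 to 9.40 in mutDFNA5 cells, median 9.26, and 9.24, 9.06, 9.16, 8.75 and 9.03 in wtDFNA5 cells. Its change was 0.22 on both probes (95% intervals 0.04 to 0.40 and 0.04 to 0.41), with adjusted p-values of 0.123 and 0.124, and without wtDFNA5 replicate 4, the lowest array, it was 0.14. HK1, the form most cells keep at all times, gave 11.98 to 12.31 in mutDFNA5 cells, median 12.16, against 11.85, 12.15, 12.23, 11.89 and 11.79 in wtDFNA5 cells, a change of 0.17 (95% interval -0.02 to 0.35, adjusted p = 0.260). In both hexokinases the groups overlapped.

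GAPDH, which makes the first NADH of glycolysis, was one of the reference genes of the study's PCR. Its brighter probe gave 14.25 to 14.53 in mutDFNA5 cells, median 14.47, and 14.25, 14.45, 14.48, 14.29 and 14.37 in wtDFNA5 cells. The change was 0.08 (95% interval -0.08 to 0.23, adjusted p = 0.600), and the second probe gave 0.07 (95% interval -0.11 to 0.25). The groups overlapped, and both intervals reached no further than 0.25 from 0.

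None of the other glycolytic enzymes passed the threshold. In log2 change, GPI, which turns glucose 6-phosphate into fructose 6-phosphate, gave 0.0032. The aldolases, which cleave the 6-carbon sugar, gave -0.05 for ALDOA and -0.07 for ALDOC, and TPI1, which interconverts the triose phosphates, gave 0.04. Of the enolases, ENO1 gave 0.10 and the neuronal form ENO2 -0.02. PKM, the last ATP-making step, gave 0.14 on its brightest probe and 0.10 and 0.08 on the others, with an adjusted p of 0.308 on the brightest. The lactate dehydrogenase subunits LDHA and LDHB gave 0.04 and 0.05.

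Of the 12 genes with several probes, 7 had all probes on the same side of 0 and 5 did not. ALDOA gave -0.05, 0.11 and -0.07 on 3 probes. PGK1, the first ATP-making step, gave -0.11 and 0.07. PGAM1, the phosphoglycerate mutase, gave -0.03 and 0.10, and it shares most of its sequence with PGAM4, so their probes may read both. PDK3, a kinase that inhibits pyruvate dehydrogenase, gave 0.05 and -0.07. PC gave 0.07 and -0.08. None of the probes of ALDOA, PGK1, PGAM1, PDK3 and PC passed the test, and the smallest adjusted p among them was 0.457. In IDH1 the probes shared a direction and differed in the call.

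**Figure D4:**
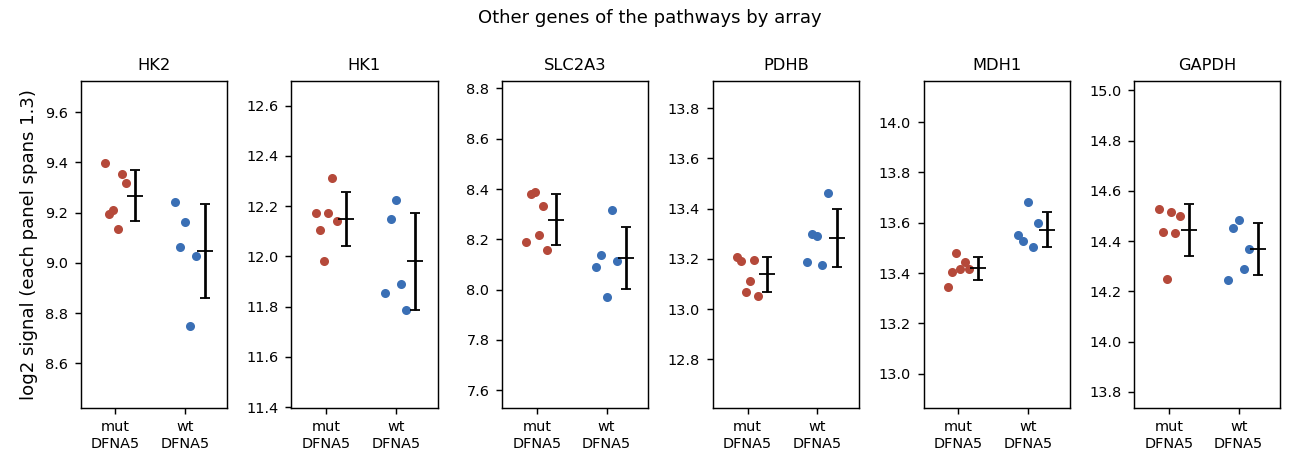
Log2 signal of each array (points) for 6 other genes of the pathways, mutDFNA5 arrays left and wtDFNA5 arrays right in each panel, with the mean ± SD as black bars (n = 6 and n = 5). MDH1 is the single gene of these whose groups stand apart, by a change of -0.15, and each of the 6 has an adjusted p above the threshold.

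Of the 6 genes tested in the pentose phosphate pathway, 0 passed, with 2 changes above 0, 4 below and a median of -0.06. In the oxidative branch, PGLS, the lactonase, had a log2 change of -0.06, and PGD, which makes NADPH, one of 0.09. RPE and RPIA sort ribulose 5-phosphate towards xylulose and ribose, and they had the smallest p-values here. RPE gave 10.64 to 10.84 in mutDFNA5 cells, median 10.74, and 10.92, 10.88, 10.76, 10.71 and 11.06 in wtDFNA5 cells, a change of -0.13 (95% interval -0.30 to 0.03, adjusted p = 0.315). RPIA gave 10.66 to 10.82 in mutDFNA5 cells, median 10.73, and 10.69, 10.67, 10.60, 10.42 and 10.78 in wtDFNA5 cells, a change of 0.10 (95% interval -0.06 to 0.26, adjusted p = 0.449). The groups overlapped in both. The transketolase TKT and the transaldolase TALDO1, which return the sugars to glycolysis, had values of -0.07 and -0.09.

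Pyruvate reaches the cycle through pyruvate dehydrogenase, which makes acetyl-CoA, or through PC, the carboxylase that makes oxaloacetate. PDHB, a subunit of pyruvate dehydrogenase, gave 13.05 to 13.21 in mutDFNA5 cells, median 13.15, and 13.19, 13.30, 13.29, 13.17 and 13.46 in wtDFNA5 cells. The groups overlapped narrowly, and the change was -0.14 (95% interval -0.30 to 0.01, adjusted p = 0.251). PDHA1, its partner, had a change of -0.07. PC gave 8.25 to 8.45 in mutDFNA5 cells, median 8.31, and 8.01, 8.11, 8.36, 8.46 and 8.31 in wtDFNA5 cells, a change of 0.07 (95% interval -0.10 to 0.24, adjusted p = 0.672). Of the 4 genes tested at this step, 0 passed.

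As a description of their promoters, 37 of the 39 genes had a window of 250 bases before to 50 after an annotated start in RefSeq (GRCh38.p14), for 31 of them at the outermost start of the gene. Letters were searched on both strands. GGGCGG, the GC box, occurred in 27 of the 37 windows (73.0%), against 44.5% of the windows of 27305 genes. ACGTG occurred in 13 (35.1%), against 21.6%, and CACGTG, the E-box, which contains ACGTG, in 4 (10.8%), against 7.40%. The 27305 genes were all those with a window, whether or not they passed the detection filter, while the 37 had passed it. The shares are therefore not matched for expression, and no test was run on them. With each strand counted apart, LDHA held the most ACGTG matches, 5, and had a log2 change of 0.04. A CACGTG reads the same on both strands and so adds a match on each. LDHA held 2 CACGTG, while PGK1, with 3 ACGTG matches, held 0, so the matches do not rank LDHA first by separate sites.

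Other genes of the same routes did pass the test. Of 88 further pathway genes listed, 48 were tested, and 5 were significantly up-regulated and 3 down-regulated in mutDFNA5 cells, beside 4.05% and 4.92% of all genes. PFKP and PFKL, isoforms of phosphofructokinase, the committing step of glycolysis, were higher by 0.48 (95% interval 0.32 to 0.64, adjusted p = 0.000329) and 0.33 (95% interval 0.15 to 0.50, adjusted p = 0.0182). PFKFB3, which makes the activator of that step, was higher by 0.25 with an adjusted p of 0.0489, and its dimmer probe did not pass (adjusted p = 0.103). Their relatives were not called. PFKM, another phosphofructokinase isoform, had a change of 0.01 (adjusted p = 0.961). PFKFB2 and PFKFB4, of the family of PFKFB3, had changes of 0.03 (adjusted p = 0.870) and -0.17 (adjusted p = 0.211). PRPS1 and PRPS2, which turn ribose 5-phosphate into the precursor of nucleotides, were higher by 0.26 (adjusted p = 0.0395) and 0.32 (adjusted p = 0.0310), and the dimmer PRPS2 probe gave 0.15 and did not pass (adjusted p = 0.368). Lower in mutDFNA5 cells was PCK2, the mitochondrial phosphoenolpyruvate carboxykinase, with a change of -0.60 (95% interval -0.76 to -0.43, adjusted p = 3.4e-05). MPC2, a subunit of the mitochondrial pyruvate carrier, was lower too, at -0.38 (adjusted p = 0.00663), as was SHPK, the sedoheptulokinase, at -0.25 (adjusted p = 0.0282). MPC1, another subunit of that carrier, was not called. Its brighter probe gave -0.01 (adjusted p = 0.956) and its dimmer probe -0.07 (adjusted p = 0.594).

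PFKP, PFKL, PCK2 and MPC2 kept their calls when any 1 array was left out. PFKFB3 lost its call in 9 of these 11 refits, all but those without mutDFNA5 replicates 3 and 4, with an adjusted p of up to 0.113, and PRPS1 in 8, all but those without mutDFNA5 replicates 3 and 4 and wtDFNA5 replicate 5, with up to 0.101. PRPS2 lost its call without mutDFNA5 replicate 2, 5 or 6 or wtDFNA5 replicate 2 or 4 (adjusted p up to 0.0874), and SHPK without mutDFNA5 replicate 1 or 6 or wtDFNA5 replicate 2, 3 or 5 (up to 0.0706). Of 20 regulators of glucose metabolism listed, 14 were tested and 3 were up-regulated, beside 4.05% of all genes: MYC by 0.50 (adjusted p = 0.0184), EPAS1, the hypoxia-inducible factor 2 alpha, by 0.50 (adjusted p = 0.000757), and ARRDC4, an arrestin that limits glucose uptake, by 0.48 (adjusted p = 0.00154). HIF1A, hypoxia-inducible factor 1 alpha, had a change of 0.18 with an adjusted p of 0.294. TXNIP, another regulator of this list, changed in the opposite direction to ARRDC4, by -0.22, and was not called (adjusted p = 0.0799). Of the 14 regulators tested, 7 changes were above 0 and 7 below.

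**Figure D5:**
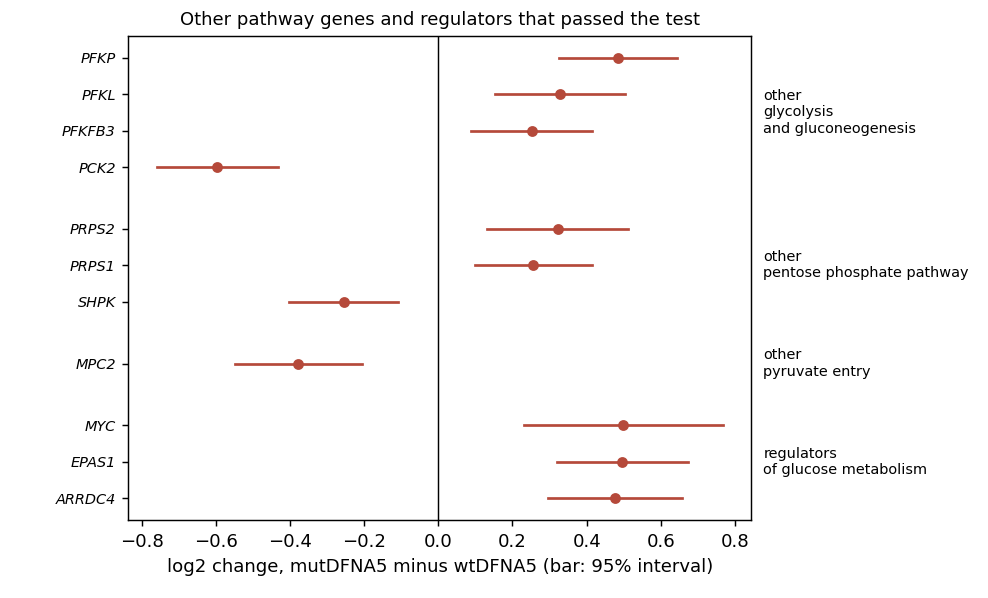
Log2 change, mutDFNA5 minus wtDFNA5 (x axis, log2 units), with its 95% interval, of the 11 further pathway genes and regulators that passed the test, grouped by list. PFKP, PFKL, MYC, EPAS1 and ARRDC4 lie between 0.33 and 0.50, and PCK2 lies lowest at -0.60.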

How the data were processed

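Total RNA of 6 mutDFNA5 and 5 wtDFNA5 HEK293T samples was amplified, labelled with biotin and put on Illumina HT12 beadchips. Groups came from the labels. Log2 signals of each probe before normalization were deposited with their detection p-values, and the authors also supplied quantile-normalized log2 values in a second table. The study's methods name beadarray, quality control with removal of 1 wtDFNA5 sample, quantile normalization and limma (version 3.24.4 in the submitters' processing notes). Whether background was corrected is not given in the sources used here.

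Quantile normalization was repeated on the deposited log2 signals (R 4.3.3, limma 3.58.1), and no value lay more than 0.019 from that second table. No background was subtracted in this step, so log2 changes of dim probes are understated where the deposited signals still hold background. A probe was kept if its detection p-value was under 0.01 on 5 or more of the 11 arrays (14542 of 42000), and the brightest probe stood for its gene. Names came from the platform annotation supplied for a later HT12 version, in which 27916 probes had 1 symbol, 7 had several and 14077 were not listed. Symbols were updated through RefSeq identifiers.

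All 11 arrays entered limma's moderated test without covariates, two-sided, p-values were adjusted by Benjamini-Hochberg across the tested probes, and each adjusted p-value is from this fit unless another test is named. The number of arrays limits the precision, and scan and slide were not given in the sources used here. Scripts were tested on simulated data. Genes, lists and tests were chosen with earlier results of these data known. Values per array are given for genes past the threshold, for the smallest p-values in each step until 2 genes are shown, and for GAPDH. Members whose probes disagreed and called genes of the other lists were named. The alternatives were 2 median scalings, the authors' table, normexp with an offset of 16, no filter, detection on all arrays, a trended robust prior, the mean of all probes, a replicate block and leaving out each array.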

Additional observations from a re-analysis of the deposited data

Results flagged for a closer look

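In 3 of 78 groups of arrays checked, 1 array stood far from the rest of its own group, where chance alone flags about 1 in 20. DLST, a subunit of the 2-oxoglutarate dehydrogenase complex, gave 9.45 on wtDFNA5 replicate 3, with the nearest wtDFNA5 array at 10.27. GAPDH gave 14.25 on mutDFNA5 replicate 3, with the nearest mutDFNA5 array at 14.43. PDHA1, a subunit of pyruvate dehydrogenase, gave 11.01 on mutDFNA5 replicate 1, with the nearest mutDFNA5 array at 11.32. None of these genes passed the test with or without these arrays: their changes without them were -0.13 for DLST, 0.11 for GAPDH and -0.0024 for PDHA1.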

How the results depend on the processing

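Of the 39 genes, 0 were up-regulated under each of the 20 alternatives, and IDH1 was down-regulated under 19, with changes between -0.54 and -0.38 and adjusted p-values between 0.000945 and 0.105. The exception was scaling each array to a common median over all probes, with 0 genes down-regulated and an IDH1 change of -0.38; the cause was not tested. The median change of the 39 genes was 0.083 under that scaling and -0.0068 under median scaling over the tested probes, and it ran between 0.00996 and 0.0385 when single arrays were left out, lowest without mutDFNA5 replicate 5.

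The sign switched under median scaling over all probes for SLC2A1 (0.057), ALDOA (0.026), TPI1 (-0.00899), PGAM1 (0.048), ENO2 (0.036), LDHA (-0.047), PGLS (0.041), TKT (0.029), PDHA1 (0.040), ACO1 (0.033), IDH3G (0.083) and SUCLG1 (0.065). It switched under median scaling over the tested probes for TPI1 (-0.099), ENO1 (-0.085) and LDHA (-0.137), and with the mean of all probes for PGAM1 (0.032), PDK3 (-0.0075) and PC (-0.0073). Leaving out single arrays gave ranges that crossed 0 for SLC2A1 (-0.080 to 0.0038), GPI (-0.052 to 0.049), ENO2 (-0.096 to 0.057), PGLS (-0.116 to 0.017), IDH3G (-0.086 to 0.036) and DLST (-0.126 to 0.123). None of these genes passed the test under any alternative.

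Over all genes, 391 were up-regulated and 475 down-regulated, against 270 and 54 under median scaling over all probes, 271 and 329 with normexp background correction, and 279 and 299 without the filter. With the replicate number as a block the counts were 259 and 298, and IDH1 stayed down-regulated (-0.44, adjusted p = 0.00476) as the single gene of the 39. Arrays with the same number correlated between -0.06 and 0.12 in their deviations, and the best match of a wtDFNA5 array was its own number in 1 of 5 cases, so the numbers were not taken as pairs. mutDFNA5 replicate 6 has no partner, so the block fit also takes it out of the comparison and gives the changes found without that array. PFKL, PFKFB3, SHPK, PRPS1 and PRPS2 were not called in the block fit (adjusted p between 0.0505 and 0.140), and all of these but PFKL were also not called without mutDFNA5 replicate 6 alone. Among the other pathway genes and regulators named, PFKP, PCK2, EPAS1 and ARRDC4 kept their calls under all 20 alternatives. PFKFB3 lost its call under 14 of them, PRPS1 under 12, PRPS2 under 10 and SHPK under 9. MPC2 lost its call under median scaling over all probes (adjusted p = 0.223) and MYC with normexp background correction (adjusted p = 0.0877).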
